A study of Mus musculus with 128 samples.

Results

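The open chromatin of cultured liver cells lacking the polarity gene Pard3 was compared with and without PD. The 4 samples compared are 2 PD and 2 control samples out of 128 in the series, of which 22 are ATAC-seq samples. Their peaks merged into 46812 regions, against 98399 when the peaks of all 22 ATAC samples were merged. A region was counted as gained when both PD samples and neither control sample had a peak in it, which held for 2831 regions, or 6.05% of the 46812. It was counted as lost in the reverse case, which held for 4375 regions, or 9.35%. These presence patterns chose the regions, so their peaks in the 4 samples are given as a description with no test.

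All 4 samples came from C57BL/6 mice with the alleles Foxa3-Cre;Pard3-fl/fl, called Pard3HMKO in the labels, in which Foxa3-Cre deletes a floxed Pard3. The tissue is labelled hepatocyte, taken at E15.5 and cultured for 2 days, with 1000 cells in each ATAC sample. The PD group was given PD, a name the labels neither spell out nor give a dose for, and the control group is labelled control. Samples used beside them were Foxa3-Cre cultures without the floxed alleles (Pard3WT) with control, PD or TPPB, 2 samples each, and uncultured E17.5 cells of Pard3WT, Pard3HMKO, YapWT (Foxa3-Cre) and YapHMKO (Foxa3-Cre;Yap-fl/fl), 3 samples each. No label states that samples came from separate animals, so tests over samples measure only the spread between these samples, which may be technical. As these are bulk samples, fewer cells of a type and a less open site in every cell cannot be told apart.

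ATAC-seq cuts DNA with a transposase where it is not wrapped tightly, so a peak marks accessible DNA such as an active promoter or enhancer. In the developing liver, factors such as HNF4A, FOXA and C/EBP proteins bind enhancers of metabolic and secretory genes as hepatoblasts mature into hepatocytes. TEAD factors with YAP, and the FOS and JUN dimers of AP-1, bind enhancers linked to growth, cell shape and the cytoskeleton, and receptor tyrosine kinases signal to many of these genes through Ras, MEK and ERK. PARD3 is a scaffold of the PAR complex, which with the atypical kinase PRKCI sets the apical side of epithelial cells.

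The promoters below carry a gained or a lost region together with a match to a factor motif, and were chosen after their values were seen, to show what such sites look like. Each run is the 250 bases before the gene's start, 5′ to 3′ on the gene's strand, from RefSeq (GRCm38.p6), with the motif in capitals. In the gained set the capitals mark FOXA and then HNF4 in Cyp3a11, a drug-metabolising P450, at chr5:145879855-145880104 on the minus strand, and HNF4 in Cyp8b1, the 12-alpha-hydroxylase of bile acid synthesis, at chr9:121916306-121916555 on the minus strand.
Cyp3a11: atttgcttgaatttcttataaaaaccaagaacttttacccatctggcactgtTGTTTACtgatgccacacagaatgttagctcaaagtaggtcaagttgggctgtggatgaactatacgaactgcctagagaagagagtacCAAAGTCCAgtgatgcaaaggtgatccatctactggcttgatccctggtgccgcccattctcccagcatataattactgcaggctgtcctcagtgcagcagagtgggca
Cyp8b1: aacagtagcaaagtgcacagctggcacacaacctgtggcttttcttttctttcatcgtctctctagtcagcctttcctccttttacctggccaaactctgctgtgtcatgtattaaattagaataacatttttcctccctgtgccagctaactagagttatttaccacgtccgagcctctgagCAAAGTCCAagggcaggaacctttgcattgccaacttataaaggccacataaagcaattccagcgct
In the lost set the capitals mark TEAD in Wtip, a LIM protein of cell junctions, at chr7:34133269-34133518 on the minus strand, AP-1 in Mrtfb, an actin-regulated cofactor of SRF, at chr16:13358171-13358420 on the plus strand, and AP-1 in Cldn4, a tight junction claudin, at chr5:134946935-134947184 on the minus strand.
Wtip: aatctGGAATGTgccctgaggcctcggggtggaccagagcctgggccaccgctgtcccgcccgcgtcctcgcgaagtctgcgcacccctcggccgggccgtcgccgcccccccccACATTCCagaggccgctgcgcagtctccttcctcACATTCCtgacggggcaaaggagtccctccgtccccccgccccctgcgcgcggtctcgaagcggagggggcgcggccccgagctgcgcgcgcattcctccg
Mrtfb: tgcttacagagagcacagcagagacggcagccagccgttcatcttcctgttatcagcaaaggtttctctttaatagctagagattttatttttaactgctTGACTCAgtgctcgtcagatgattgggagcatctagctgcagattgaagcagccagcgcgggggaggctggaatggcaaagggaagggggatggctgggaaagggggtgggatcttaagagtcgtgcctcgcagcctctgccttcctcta
Cldn4: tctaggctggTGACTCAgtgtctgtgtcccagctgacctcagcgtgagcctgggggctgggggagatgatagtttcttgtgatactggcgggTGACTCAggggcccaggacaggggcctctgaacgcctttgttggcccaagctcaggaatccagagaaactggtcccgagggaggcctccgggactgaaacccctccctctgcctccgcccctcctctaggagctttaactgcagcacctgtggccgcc
The Wtip window holds 3 TEAD matches, starting 245, 135 and 101 bases before the start, and the Cldn4 window holds 2 AP-1 matches, starting 240 and 158 bases before it. In Cyp8b1 the HNF4 match starts 67 bases before the start.

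The PD samples held 24330 and 31877 peaks and the control samples 26293 and 35301. Their means were 28104 ± 5337 and 30797 ± 6370 (SD, n = 2 each), their ranges overlapped, and an exact two-sided permutation test gave p = 0.667, where 2 against 2 samples cannot go below 0.333. The peaks covered 14.3 and 17.2 Mb with PD and 14.1 and 23.0 Mb in controls (exact p = 1). The deposited lists hold no read depth, and the authors' score of a peak was at least 50 in each of the 4. Of the peaks of PD replicate 1, 88.4% had a peak in PD replicate 2, and 67.7% in the reverse direction. Of those of control replicate 1, 89.99% had one in control replicate 2, and 65.3% in the reverse direction. Between the groups, 54.2% to 80.0% of a sample's peaks had a peak in a sample of the other group, a range that overlaps the one within groups.

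The cell label was checked at promoters of marker genes. Of 7 hepatocyte markers with a promoter in the RefSeq table, 4 and 6 had a promoter peak in the PD samples and 4 and 5 in the controls. No sample had a promoter peak at the listed erythroid, macrophage, stellate or biliary markers, with 3 or 4 promoters available per type. An endothelial promoter had one in control replicate 2, of 3 available. Within 10 kb of the whole gene, peaks did occur at such markers, at 1 or 2 of 5 endothelial markers with PD and 3 or 4 in controls, and at 1 or 2 of 5 stellate markers with PD and 3 or 4 in controls. Biliary markers had peaks at 1 and 1 of 5 with PD and at 2 and 3 in controls. The other types did not fall with PD. Macrophage markers had peaks at 2 and 4 of 5 with PD and 2 and 3 in controls, and erythroid markers at 1 and 2 in both groups. Of 33 regions near a longer list of endothelial markers 5 (15.2%) were lost and 1 gained, and of 22 near stellate markers 3 (13.6%) were lost and 0 gained. Near all protein-coding genes 8.29% were lost and 5.90% gained. Of 18 regions near erythroid markers 1 was lost and 0 gained, and of 23 near macrophage and myeloid markers 0 were lost and 1 gained. Within 50 kb, 10.6% of endothelial regions were lost and 7.06% gained, and 12.7% of stellate regions lost and 0 gained. Near all genes these shares were 8.91% and 5.95%. With a score of at least 100, 2 of 17 endothelial regions were lost and 0 gained, and of 8 stellate regions 1 was lost and 1 gained. Whether other cells took part in the losses was not tested.

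Of the 46812 regions, 15350 had a peak in all 4 samples and 15397 in a single sample. Beside the gained and lost regions, 2786 had a peak in both PD samples and 1 control, 3054 in both controls and 1 PD sample, and 3019 in 1 of each. Gained and lost peaks were weaker than the shared ones. The median authors' score of gained regions was 73.2 and 94.7 in PD replicates 1 and 2, at the 30.0 and 41.1 percentiles of those samples' own peaks. For lost regions it was 75.9 and 105 in control replicates 1 and 2, at the 32.2 and 44.9 percentiles. Regions open in all 4 samples had medians of 145 to 239, at the 66.7 to 76.8 percentiles. At the edge of the rule, 709 gained regions had a score below 60 in PD replicate 1 and 902 lost regions in control replicate 1, so near the floor of 50 a slightly lower signal would have left them out. With peaks below a score of 100 dropped from all 4 samples and the regions called anew, 1252 gained and 2095 lost regions of 25077 were found, some of them not among those called before. Leaving out 1 sample, which relaxes the rule, gave 3207 to 7923 gained and 4950 to 11584 lost regions, the highest without PD replicate 1 and without control replicate 1.

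The same regions were then looked up in the Pard3WT cultures, which had no part in choosing them. A peak was present in 70.1% and 82.7% of the gained regions in the 2 Pard3WT PD samples, and in 31.2% and 47.8% in the 2 Pard3WT controls. The groups did not overlap, with means of 76.4% ± 8.87 and 39.5% ± 11.7 (SD, n = 2 each), a difference of 36.9 percentage points. For the lost regions the order was the reverse, with a peak in 4.21% and 7.70% with PD and in 49.1% and 65.4% in controls. Their means were 5.95% ± 2.47 and 57.3% ± 11.54 (SD, n = 2 each), a difference of -51.3 points. Each of these 2 differences had p = 0.333 in an exact two-sided permutation test, the smallest that 2 against 2 samples allow, and 0.333 after Benjamini-Hochberg adjustment. Over all 46812 regions the shares were 46.8% and 53.7% with PD and 59.3% and 69.7% in controls, so Pard3WT PD samples had fewer peaks throughout, yet more in the gained regions. In a further setting the same number of highest-scoring peaks (24270) was taken from each of the 8 cultures, and gained and lost regions were called anew. On that other set of regions the difference was 58.6 points for gained and -32.6 points for lost regions.

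Region by region, 776 of the 2831 gained regions (27.4%) had a peak in both Pard3WT PD samples and in neither Pard3WT control, a pattern found in 3.68% of all regions. The opposite pattern held for 77 (2.72%), and 483 (17.1%) had a peak in all 4 Pard3WT cultures. Of the 4375 lost regions, 1620 (37.0%) had a peak in both Pard3WT controls and in neither Pard3WT PD sample, against 13.1% of all regions, 7 had the opposite pattern, and 1211 (27.7%) had no peak in any of the 4. With equal peak numbers and regions called anew, the shares with the same pattern were 46.7% of gained and 22.3% of lost regions, against 8.77% and 6.77% of all regions of that set. When regions were merged over the 8 cultures, 766 were gained in both genotypes, 27.4% of the Pard3HMKO list and 38.8% of the 1976 gained in Pard3WT. In the same regions, 1601 were lost in both, 37.1% of the Pard3HMKO list and 15.2% of the 10565 lost in Pard3WT.

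**Figure D1:**
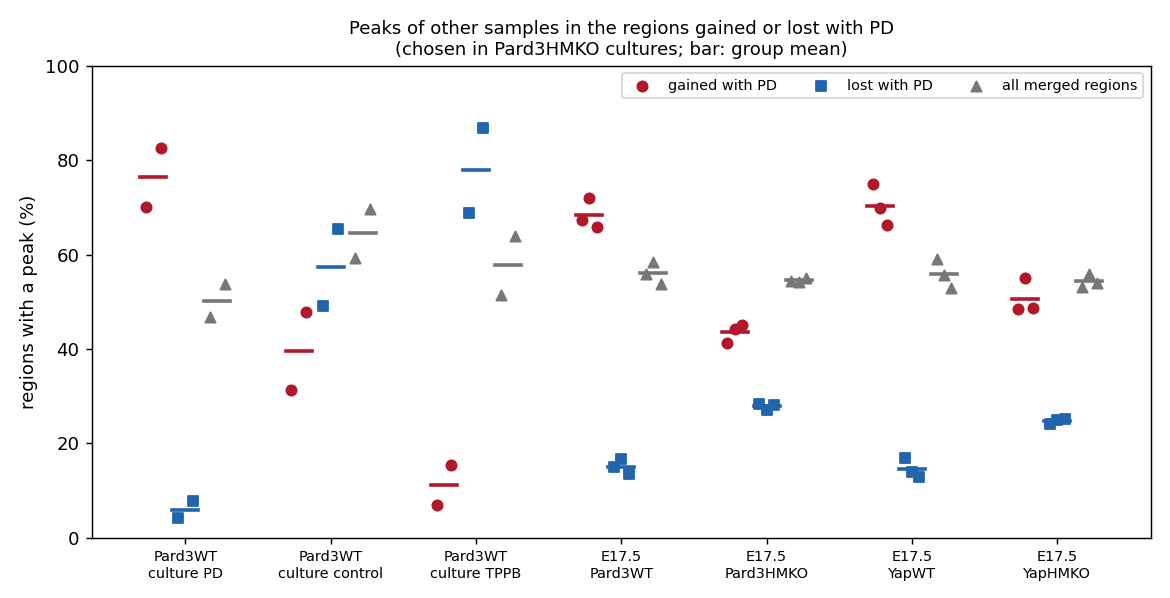
Share of the gained (red circles), lost (blue squares) and all merged regions (grey triangles) that held a peak in each ATAC sample not used to choose them, in percent on the y axis, by group on the x axis, with the group mean as a bar. Gained regions held peaks in 70.1% and 82.7% of cases in Pard3WT PD and in 6.89% and 15.4% in Pard3WT TPPB, and lost regions in 4.21% and 7.70% and in 68.8% and 86.9%.

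Pard3WT cultures given TPPB share their controls with the Pard3WT PD cultures and are set beside them without a test. Gained regions held a peak in 6.89% and 15.4% of cases in the TPPB samples, below both Pard3WT controls, and lost regions in 68.8% and 86.9%, above both. Over all 46812 regions the TPPB shares were 51.5% and 64.0%. Of the 4375 lost regions, 2843 (65.0%) had a peak in both TPPB samples, and 113 (3.99%) of the gained regions did.

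In uncultured E17.5 cells the gained regions held a peak more often in the control genotypes than in the knockouts. In Pard3WT samples 65.9%, 67.4% and 72.1% of them held a peak, and in Pard3HMKO samples 41.3%, 44.3% and 45.1%, a difference of -24.9 percentage points. Lost regions held a peak in 13.51%, 14.9% and 16.7% of cases in Pard3WT and in 27.1%, 28.2% and 28.4% in Pard3HMKO, a difference of 12.8 points. The Yap line had the same order, with means of 70.3% ± 4.34 in YapWT and 50.7% ± 3.69 in YapHMKO for gained regions and 14.6% ± 2.16 and 24.8% ± 0.531 for lost regions (SD, n = 3 each). None of these 4 comparisons overlapped, and each gave p = 0.1 by an exact two-sided permutation test, the smallest for 3 against 3, and 0.1 after adjustment. Over all regions the groups overlapped, with 56.0% ± 2.41 in Pard3WT and 54.6% ± 0.532 in Pard3HMKO (exact p = 0.5). Of the gained regions 1540 (54.4%) had a peak in all 3 E17.5 Pard3WT samples and 733 (25.9%) in all 3 E17.5 Pard3HMKO samples.

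Gained and lost regions lay away from promoters. A promoter here is the RefSeq window from 250 bases before to 50 after a listed start, available for 17492 of 21887 protein-coding genes. Of regions open in all 4 samples 48.7% overlapped one, but only 4.52% of gained (128) and 6.67% of lost regions (292) did, against 21.4% of all. Inside gene spans, outside those windows, lay 58.9% of gained and 52.4% of lost regions, against 46.9% of all. More than 10 kb from any protein-coding gene lay 22.6% of gained, 29.4% of lost and 20.4% of all regions. Median widths were 471 bases for gained, 488 for lost and 900 for regions open in all 4 samples. On the autosomes 5.02% to 7.25% of regions were gained and 8.51% to 10.9% lost, and on X 36 of 936 regions (3.85%) were gained and 57 (6.09%) lost.

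**Figure D2:**
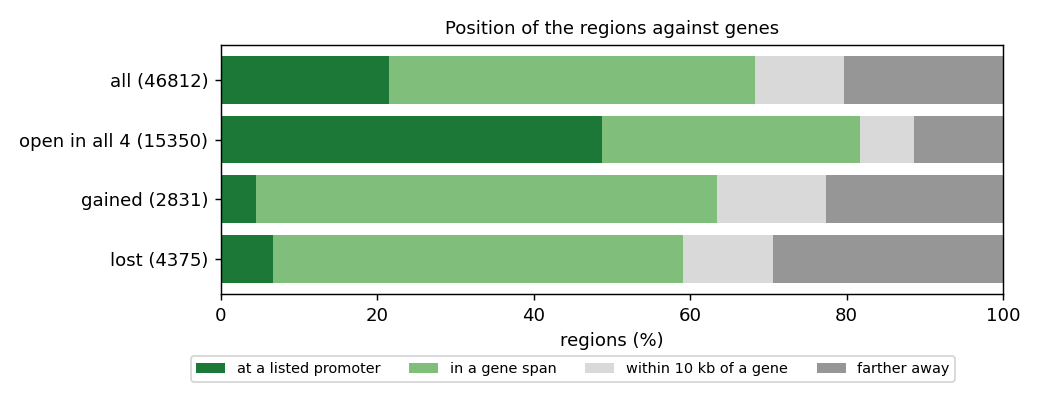
Share of regions in percent (x axis) that overlapped a listed promoter, lay in a gene span, lay within 10 kb of a gene, or farther away, for all merged regions, regions open in all 4 samples, and gained and lost regions (y axis, number of regions in parentheses). The promoter share is 48.7% for regions open in all 4 samples and 4.52% and 6.67% for gained and lost regions.

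Gene groups were described by the regions within 10 kb of their genes. Near all protein-coding genes, 5.90% of regions were gained and 8.29% lost, and 10.1% of genes (2208) had a gained region and 13.4% (2936) a lost one. In the lists below, a gene can share a region with a neighbour.

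Lists of mature hepatocyte function had a larger share of gained regions than all genes, and all but the bile acid list had at most 1 lost region within 10 kb. Within 50 kb, 11 of 171 maturation regions (6.43%) and 8 of 187 complement and coagulation regions (4.28%) were lost, against 8.91% near all genes. At that distance 3 of 91 P450 and 4 of 162 fatty acid regions were lost. Near 23 cytochrome P450 genes, the haem enzymes of drug, steroid and bile acid oxidation, 12 of 39 regions (30.8%) were gained and 1 lost, with a gained region at 9 genes. Of 77 regions near 24 hepatocyte maturation genes 15 (19.48%) were gained and 1 was lost, with a gained region at 12 genes. Near genes of bile acid synthesis and transport 10 of 75 regions were gained and 5 lost, near fatty acid oxidation and ketone genes 9 of 77 and 1, and near complement, coagulation and acute phase genes 11 of 95 and 1. All 10 gained bile acid regions and all 9 gained fatty acid regions also had a peak in both Pard3WT PD samples, against 64.6% of all gained regions. Of the 12 gained P450 regions 4 did. A peak in both Pard3WT PD samples and in neither Pard3WT control was found in 27.4% of all gained regions. It held for 4 of the 10 bile acid, 5 of the 9 fatty acid and 2 of the 12 P450 regions. Of the 15 maturation regions 5 had it, and of the 11 complement and coagulation regions 2. In all 3 E17.5 Pard3WT samples a peak was present in 10 of the 12 gained P450 regions, 10 of the 15 maturation regions and 10 of the 11 complement and coagulation regions, against 54.4% of all gained regions, and in 3 of 10 bile acid and 3 of 9 fatty acid regions. A peak in both TPPB samples was rare among gained regions in general, at 3.99% of them. No gained region of these 5 lists had one, and neither had any near receptors and ligands, YAP and TEAD targets, cell cycle or biliary genes.

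Several of these genes had more than 1 gained region. Igf1, the liver's endocrine growth factor, had 2 of 5 and Cps1, the entry enzyme of the urea cycle, 2 of 6. Abcg5, which with Abcg8 exports sterols into bile, had 2 of 5, and the region at chr17:84682662-84683314, over both promoters, scored 99.9 and 207 with PD and 119 and 119 in Pard3WT PD, with no peak in any control. Slco1b2, a bile acid and drug uptake carrier, had a gained region at chr6:141640552-141641110 with scores of 153 and 193 with PD. In Cyp8b1 2 of 4 regions and in Cyp3a25 2 of 3 were gained, and both regions of Cyp2f2 were. Both gained Cyp8b1 regions also had peaks in both Pard3WT controls, and the gained Cyp3a25 regions had none there. The Cyp2f2 regions scored only 57.7 and 55.7 in PD replicate 1, and each had a peak in a single Pard3WT control. Among the lost regions of these lists were 2 of 6 at Abcb1a, a drug efflux pump, and 1 of 3 at Cyp27a1, the mitochondrial sterol 27-hydroxylase.

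Hepatocyte transcription factors had 15 gained and 9 lost of 148 regions. Nr1i2, the xenobiotic receptor PXR, had 3 of 6 gained, the strongest at chr16:38287352-38288394 with scores of 195 and 101 with PD. That region also scored 104 and 63.2 in Pard3WT PD and 74.5 and 76.4 in Pard3WT controls. Hnf4a, a nuclear receptor at the head of the hepatocyte programme, had 1 of 7, at chr2:163540337-163541291, with scores of 103 and 129 with PD, 166 and 140 in Pard3WT PD and 74.9 in a single Pard3WT control. Cebpa had 1 gained and 1 lost region of 5, and Nr5a2, a nuclear receptor, 1 gained and 2 lost of 13. Foxa1, Foxa2, Onecut2 and Tbx3 each had a lost region only.

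Near YAP and TEAD target genes more regions were lost than gained, with 16 of 97 regions (16.49%) lost and 3 gained, and a lost region at 11 of 22 genes. Ankrd1, a stress-responsive muscle ankyrin protein and a standard YAP target, lost both its regions. Its promoter region at chr19:36119668-36120351 scored 112 and 216 in the controls and 79.2 and 118 in Pard3WT controls, and had no peak in any of the 4 PD samples. Crim1, a transmembrane regulator of growth factors, lost 2 of 6 regions, with control scores of 127 and 253 at chr17:78322287-78323352. That region had no peak in any Pard3WT culture, and the other lost Crim1 region scored 50.84 and 97.05 in Pard3WT controls only. Axl, a receptor tyrosine kinase, lost 2 of 4. Amotl1 and Ptpn14, which encode junction proteins that bind YAP, lost 2 of 3 and 2 of 6. Amotl2 had 2 gained and 1 lost region of 6. At Yap1 itself 0 of 5 regions were gained or lost. Of the 16 lost regions 4 showed the same pattern in Pard3WT, against 37.0% of all lost regions, and 13 had a peak in both TPPB samples, against 65.0% of all lost regions.

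Genes on the route from receptors to ERK had gained and lost regions. Among receptors and ligands 11 of 101 regions were gained and 8 lost, and with a score of at least 100 the balance turned, to 4 gained and 9 lost of 55. Met, the receptor for hepatocyte growth factor, had 3 gained and 2 lost regions of 18, and Egfr 1 gained and 2 lost of 8, while Insr, the insulin receptor, had 3 of 10 gained. In the kinase cascade 7 of 90 regions were gained and 3 lost. With a score of at least 100, 0 of 50 cascade regions were gained. Sos2, an exchange factor for Ras, lost 2 of 8.

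Near the feedback and target genes of ERK, 4 of 76 regions (5.26%) were gained and 7 (9.21%) lost, against 5.90% and 8.29% near all genes. With a score of at least 100, 0 of 45 were gained and 6 (13.3%) lost, against 4.48% and 7.18%, and within 50 kb 3.29% were gained and 11.8% lost, against 5.95% and 8.91%. Etv4 and Etv5, ETS factors induced by ERK, lost 2 of 3 and 2 of 5 regions. The Etv5 region at chr16:22389108-22389585 scored 105 and 141 in the controls and 73.8 and 164 in Pard3WT controls, with no peak in any PD sample. Spry2 and Spred3, inhibitors of the pathway, each lost 1 region. The Spry2 region at chr14:105898463-105899290 scored 74.4 and 85.5 in the controls but had peaks in all 4 Pard3WT cultures, PD included. Spred1 gained 2 of 3 regions, and Spry1 and Ccnd1, the G1 cyclin, gained 1 each, with scores of 63.0 and 63.8 at Spry1 and 91.2 and 69.9 at Ccnd1. At Dusp4, Dusp5, Dusp6, Spry4, Phlda1 and Myc no region was gained or lost. Of 52 regions near AP-1 and immediate early genes 0 were gained and 1 lost, at Egr3, and Egr1, Fos, Fosl1 and Jun had none. With a score of at least 100, 0 of 34 regions of this list were gained and 2 lost. Within 50 kb 6 of its 155 regions (3.87%) were gained and 9 (5.81%) lost, against 5.95% and 8.91% near all genes.

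Apical polarity and junction genes had 20 gained and 17 lost of 194 regions. Prkci, the atypical kinase of the PAR complex, lost 3 of 5, of which chr3:31022729-31023572 had scores of 222 and 365 in the controls and 139 and 185 in Pard3WT controls, and no peak in any PD sample. Tjp1, the tight junction scaffold ZO-1, lost 4 of 14. Of those 4, 2 had peaks in both Pard3WT controls and also in 1 or both Pard3WT PD samples, and the other 2 in no Pard3WT culture. Pard3b, a paralog of Pard3, gained 3 of 10, with scores of 91.8 and 110 at chr1:61649802-61650432 and 124 and 166 in Pard3WT PD. Myo5b, the motor of apical recycling, had 3 gained and 1 lost region of 16, and Cdh2, N-cadherin, 3 gained and 2 lost of 14. Pard3 had 26 regions, of which 1 was gained and 1 lost, both near the floor of the scores, with 54.3 and 51.7 with PD and 57.7 and 61.1 in controls. Cdh1, E-cadherin, had 1 gained region of 10, with scores of 53.4 and 54.6.

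Biliary genes had 4 gained and 8 lost of 71 regions, 3 of the lost at Itgb6 and 3 at Notch2. Sox9, a cholangiocyte factor, and Cftr, the chloride channel, each lost their only region, the Cftr one at chr6:18270990-18271516 with control scores of 205 and 327. Hepatoblast and fetal genes had 5 gained and 6 lost of 79, with 3 lost and 1 gained at Igf2bp2 and 1 gained at Igf2. Afp, the fetal albumin relative, had a gained region 28045 bases from its own start, at chr5:90518359-90519159, which is the promoter of its neighbour Afm. This region scored 77.6 and 95.3 in Pard3WT PD and 51.9 and 54.85 in Pard3WT controls. Alb had 2 regions, neither gained nor lost. Cell cycle genes had 6 gained and 4 lost of 86.

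**Figure D3:**
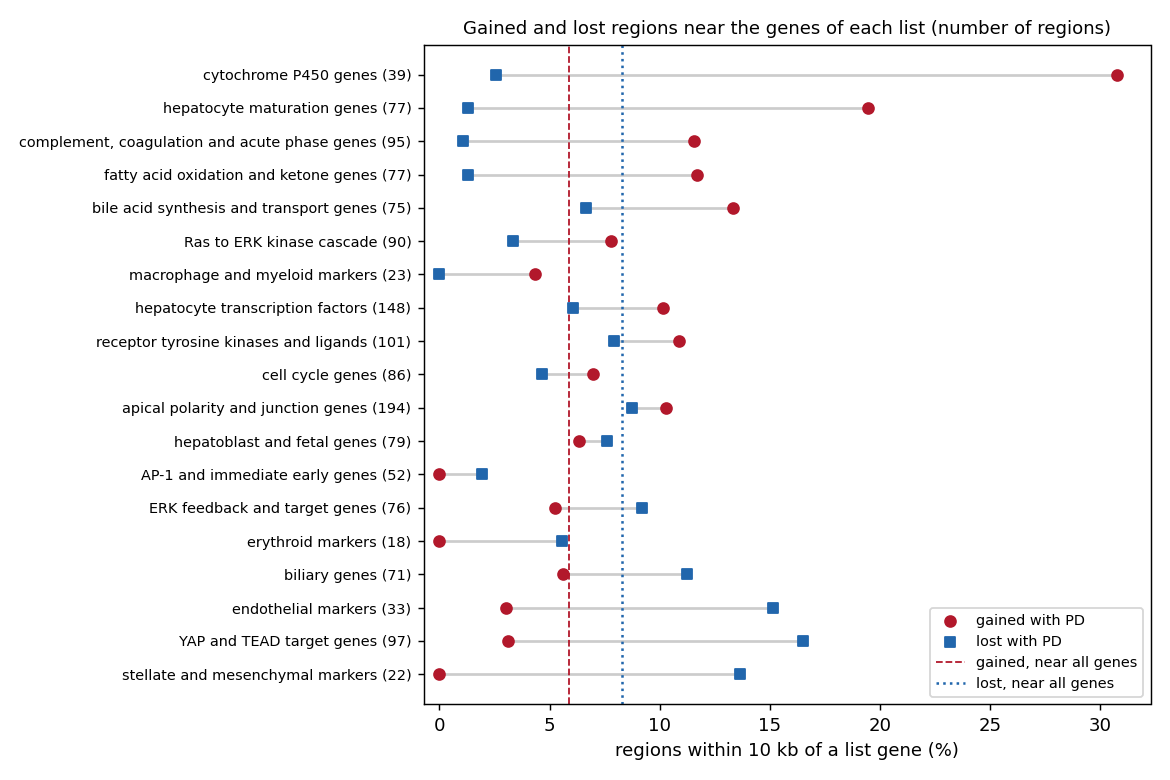
Share of regions within 10 kb of the genes of each list (y axis, number of regions in parentheses) that were gained (red circles) or lost (blue squares) with PD, in percent on the x axis, with the shares near all genes as dashed and dotted lines at 5.90% and 8.29%. P450 genes stand at 30.8% gained and 2.56% lost, and YAP and TEAD target genes at 3.09% gained and 16.49% lost.

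The strongest regions were ranked by the lower of the percentiles of their scores in the samples that chose them, and named by the nearest protein-coding gene. The strongest gained region was at chr19:43918624-43919329 inside Dnmbp, an exchange factor for CDC42 at junctions, with scores of 308 and 373 with PD. It also scored 338 and 341 in Pard3WT PD and 64.9 and 105 in Pard3WT controls, so all 4 Pard3WT cultures had a peak there. Regions in Abhd6, a monoacylglycerol lipase (258 and 358), in Cdh2 (251 and 336), 3919 bases from Ces1e, a carboxylesterase (248 and 463), and in Ptprf, a receptor phosphatase (232 and 345), likewise had a peak in both Pard3WT controls. Gstm3, a glutathione transferase, had one at chr3:107962250-107965442 with scores of 239 and 389 with PD, 208 and 245 in Pard3WT PD, and no peak in any control of either genotype. The same held for a region at chr4:96664968-96665527, 797 bases from Cyp2j5 (235 and 289), and for a distal region 269406 bases from Mki67 (230 and 299). In Cblb, a ubiquitin ligase for receptors, and 7070 bases from Hrob, 2 further regions of this pattern scored 216 and 321 and 228 and 269.

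The strongest lost region was at chr17:14886665-14887466 in Wdr27, with scores of 346 and 472 in the controls, 220 and 379 in Pard3WT controls, and no peak in any PD sample. It was followed by regions 37547 bases from Rad54b (331 and 521), in Rbks, a ribokinase (319 and 490), 8349 bases from the olfactory receptor gene Olfr9 (298 and 469), 1214637 bases from Cited2 (316 and 413), in Ttll5 (294 and 412) and in Wwox (332 and 395), all with the same pattern in Pard3WT. The region in Osbpl3, an oxysterol-binding protein, scored 293 and 461 in controls and had peaks of 55.4 and 56.9 in Pard3WT PD. In these 8 lost regions both Pard3WT controls had a peak.

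The 16 genes with the most gained or lost regions, all over 100 kb long, held 4 to 6 of one kind. Nos1ap and Tenm3 each had 6 gained regions, of 19 and 23, and Itgb5, Nfia and Daam1 5 each, of 12, 21 and 16. Daam1, a formin in planar polarity signalling, also lost 4. Aldh1a1, a retinaldehyde dehydrogenase, had 4 of 6 gained and 0 lost, of which chr19:20529893-20530415 scored 155 and 147 with PD and 126.1 and 248.5 in Pard3WT PD, with no peak in any control. Synj2 and Upp2, a uridine phosphorylase of liver, had 4 gained of 17 and of 14. Ank3, Arhgap22, Agap1, Lpp, Dst and Nav2 each lost 6 regions, of 17 to 35, and Agap1, Lpp, Dst and Nav2 also gained 1 to 3. Rptor, the mTORC1 scaffold, lost 5 of 14 and Nrp2, a semaphorin and VEGF co-receptor, 5 of 7. Among those of Nav2, the region chr7:49601138-49602158 was the strongest, with control scores of 272 and 401 and 140 and 289 in Pard3WT controls. With a score of at least 100, Ank3 had 1 region more gained than lost and Nos1ap as many of each. With equal peak numbers in the 4 samples, Daam1, Lpp and Nav2 had as many gained as lost.

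Of 11190 genes with a merged region at the promoter, 131 had a gained region there and 309 a lost one, 94 and 225 of them protein-coding. Of the 131 gained promoters 17 belonged to genes of the lists and 23 had the same pattern in Pard3WT, and of the 309 lost 2 and 142. Over all positions 27.4% of gained and 37.0% of lost regions had the same pattern in Pard3WT. The lists hold 403 of 21887 protein-coding genes, and their share among all promoters with a region was not counted. Abcb11, the bile salt export pump, had the promoter region chr2:69342435-69343300 with scores of 183 and 151 with PD and 192 and 280 in Pard3WT PD, and no peak in any control. Asgr1, the asialoglycoprotein receptor, scored 127 and 152 with PD, 109 and 98.1 in Pard3WT PD, and 60.8 in a single Pard3WT control. Lipc, hepatic lipase, followed the Abcb11 pattern with 74.5 and 140 with PD and 120 and 114 in Pard3WT PD. At Cyp8b1, shown above, scores were 76.8 and 82.8 with PD, with 1 peak in Pard3WT PD (81.6) and peaks in both Pard3WT controls (67.7 and 63.9), so the pattern did not recur in Pard3WT. Glyctk, a glycerate kinase, scored 120 and 118 with PD and 84.7 and 140 in Pard3WT PD, with no peak in any control, and Cyp3a11 102 and 89.0 with PD and 70.2 in a single Pard3WT PD sample. Slc2a2, the glucose transporter GLUT2, scored 98.5 and 170 with PD and had peaks in all 4 Pard3WT cultures. Other gained promoters were those of G6pc, Nr1i2, Nr1h4, F7, F12, Otc and Fabp1. The Nr1i2 one also had peaks in all 4 Pard3WT cultures, with 107 and 114 with PD and 132 and 76.5 in controls.

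Among lost promoters, Nppb, a natriuretic peptide, ranked first, with scores of 238 and 446 in the controls, with peaks of 63.8 and 113 in Pard3WT controls and 63.6 in 1 Pard3WT PD sample. Itgb8, an integrin that activates TGF-beta, scored 145 and 264 in controls and 134 and 216 in Pard3WT controls, with no peak in any PD sample. Bcl2, the anti-apoptotic protein, had the same pattern with 121 and 201, and so had Wtip with 132 and 178 and Mrtfb with 106 and 148. Cldn4 scored 69.1 and 140 in the controls and had no peak in any Pard3WT culture, and Serpinh1, a collagen chaperone, 118 and 110, also with none. Nrp2 scored 124 and 142 in the controls.

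**Figure D4:**
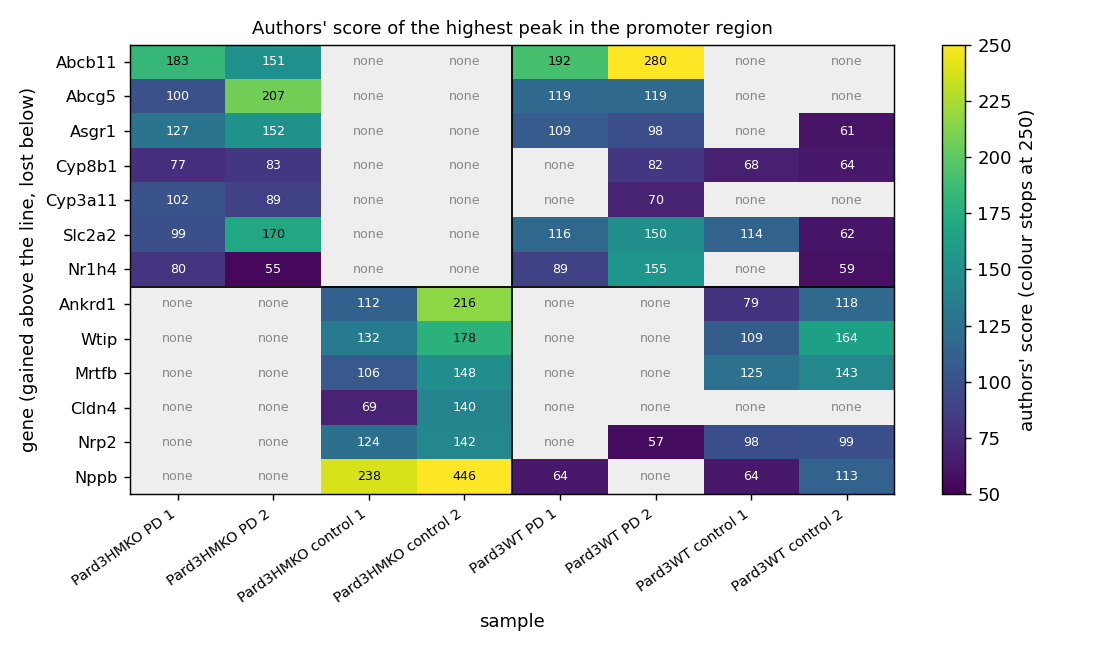
Authors' score of the highest peak (colour and number, none where there is no peak) in the promoter region of 7 gained genes (above the line) and 6 lost genes (below) in each Pard3HMKO and Pard3WT culture on the x axis. The genes were chosen after their values were seen. Abcb11, Abcg5, Ankrd1, Wtip and Mrtfb have the same pattern in both genotypes, Cldn4 has no peak in Pard3WT, and Slc2a2 has peaks in all 4 Pard3WT cultures.

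Motifs were searched in the 300-base promoter windows on both strands, 1 window a gene, as plain letters in which N is any base: TGANTCA for AP-1, CCGGAAG for ETS, GGAATGT for TEAD, TGTTTAC for FOXA, CAAAGTCCA for HNF4, TTGCNNAA for CEBP and AGATAAG for GATA factors. HNF4 was in 4 of 131 gained promoters (3.05%), in 0 of 309 lost promoters and in 0.496% of all 27025 promoters. GATA was in 9.92% of gained, 1.62% of lost and 3.07% of all, FOXA in 7.63%, 4.85% and 3.58%, and CEBP in 15.3%, 8.41% and 10.7%. AP-1 was in 12.6% of lost, 9.92% of gained and 7.91% of all, and TEAD in 4.53%, 1.53% and 3.94%. ETS, frequent at promoters open in all 4 samples (20.7%), was in 6.87% of gained and 7.77% of lost promoters and in 9.08% of all. Over the last 150 bases before the start, AP-1 was in 3.05% of gained and 6.80% of lost promoters against 4.33% of all. These are counts of letter matches without a test, in the small share of gained and lost regions that lie at promoters.

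**Figure D5:**
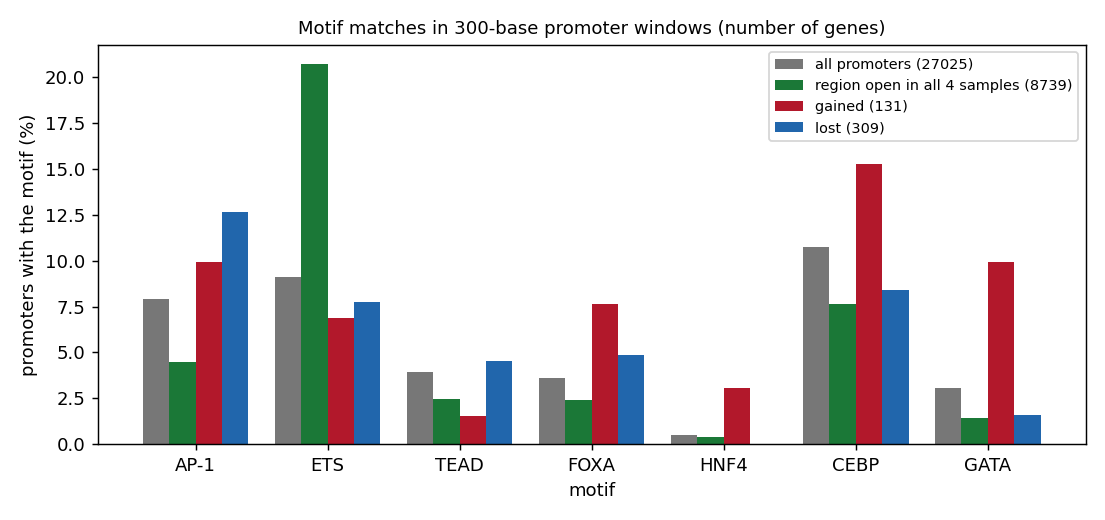
Share of promoters (y axis, percent) with a match to each motif (x axis), for all promoters, promoters under a region open in all 4 samples, and gained and lost promoters, with the number of genes in the legend. HNF4 and GATA stand highest at gained promoters (3.05% and 9.92%) and AP-1 at lost promoters (12.6%).

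Of 1005 miRNA hairpins in the RefSeq table, 583 lay within 10 kb of a merged region, 48 of a gained and 63 of a lost one. Beside them, 2208 of 21887 protein-coding genes (10.1%) had a gained region within 10 kb and 2936 (13.4%) a lost one. Genes were matched over their whole span and hairpins are short, so the gene shares are not a like measure. Of all 46812 regions 6.05% were gained and 9.35% lost. Whether hairpins lie near such regions more or less often than other sites was not tested. Hairpins within 2000 bases, numbered below 1000, were 3 near gained and 5 near lost regions. The mature forms of the better known ones are shown with the seed, bases 2 to 8, in capitals. Near gained regions lay Mir675, made from H19, and Mir483, inside Igf2, both in the imprinted cluster of chromosome 7, and Mir7b.
mmu-miR-675-5p: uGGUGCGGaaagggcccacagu
mmu-miR-483-5p: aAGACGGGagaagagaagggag
mmu-miR-7b-5p: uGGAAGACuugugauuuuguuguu
Near lost regions lay Mir92b, Mir199a-2, and Mir181a-2 with Mir181b-2, which share a region and a seed.
mmu-miR-92b-3p: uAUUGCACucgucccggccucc
mmu-miR-199a-5p: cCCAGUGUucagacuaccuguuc
mmu-miR-181a-5p: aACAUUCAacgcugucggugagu
mmu-miR-181b-5p: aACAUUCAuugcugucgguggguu
The region 1095 bases from Mir675, chr7:142574528-142575969, scored 103 and 183 with PD and 190 and 277 in Pard3WT PD, with no peak in any control. The region 971 bases from Mir483 scored 73.1 and 76.2 with PD, and that 526 bases from Mir7b 64.1 and 90.3, but the latter had peaks in all 4 Pard3WT cultures. The lost region chr3:89227189-89227829 overlaps the Mir92b hairpin and scored 166 and 197 in the controls, 86.5 and 234 in Pard3WT controls and 72.7 in 1 Pard3WT PD sample. The regions near Mir199a-2 (83.9 and 106) and Mir181a-2 (69.9 and 53.9) had a peak in 1 and in none of the Pard3WT cultures.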

How the data were processed

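ATAC-seq peak lists of 22 samples were used, 1 list per sample, and the RNA tables of the series were not used here. Per the submitters' processing notes, the tools named by the authors include MACS 1.4.2, SAMtools 1.3.1, Trimmomatic 0.38 and Bowtie2 2.2.5, besides FastQC and HOMER, with mm10 as the build. The deposited value is a score per peak, at least 50 in every list, given by the authors for that list alone, so it only ranks peaks within a sample. Read depth is not given in the sources used here, so no counting interval is possible.

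Peaks sharing at least 1 base were merged, with 1-based coordinates, in Python 3.11.15, with scipy 1.17.1 for the tests and pandas 2.3.3 and numpy 2.4.6 for the tables. The calling code was checked on simulated peak lists. There each planted region had a peak in every sample of its group, so the check does not bear on how reliable the calls in these data are. Shares per sample were compared by exact permutation tests. Genes came from RefSeq spans (GRCm38.p6). Of 408 list entries 407 matched. Promoter sequences cover part of the genes, and 1 window a gene was searched.

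Always named were ERK targets, Pard3, Yap1 and liver genes, plus the 8 strongest regions and 8 genes with most regions per direction, up to 3 genes per list, and the 5 strongest repeated in Pard3WT. Further list genes and the promoter, opposite-pattern and miRNA examples were chosen after their values were seen. The members and lists were chosen with earlier results of these data known. Replicate numbers do not pair samples in the labels. Some genes and 1 motif are not reported here. Alternatives are in the closing section.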

Additional observations from a re-analysis of the deposited data

Results flagged for a closer look

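In 77 regions the Pard3HMKO and Pard3WT cultures moved in opposite ways: both Pard3HMKO PD samples and both Pard3WT controls had a peak, and the other 4 cultures had none. They are 2.72% of the gained regions, whereas 13.1% of all merged regions had a peak in both Pard3WT controls and in neither Pard3WT PD sample. The difference between the genotypes was not tested. The strongest were in Snd1 (scores of 101 and 109 in Pard3HMKO PD, 98.0 and 76.0 in Pard3WT controls), in Armc8, 22290 bases from Bach1, in Wdfy3 and in Meis2. The reverse pattern held for 7 regions, 0.16% of the lost regions against 3.68% of all for that Pard3WT pattern, the strongest in Cd99l2, Zbed4, Rin2 and Nr5a2. The Nr5a2 region, at chr1:136895703-136896283, scored 58.5 and 67.9 in Pard3HMKO controls and 65.2 and 53.8 in Pard3WT PD. This difference was not tested either.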

How the results depend on the processing

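The counts of gained and lost regions stayed within 1.5 times of 2831 and 4375 with equal peak numbers, wider merging, a coverage rule, a 1 kb gap to the other group and autosomes only. A score of at least 100 gave 1252 gained and 2095 lost, and bins of 500 bases 5571 and 9075. Without 1 sample the counts ran from 3207 to 7923 gained and from 4950 to 11584 lost. Gained regions numbered 7923 without PD replicate 1, 4369 without PD replicate 2 and 5319 without control replicate 2, and lost regions 11584 without control replicate 1 and 6882 without PD replicate 2. Leaving out a sample relaxes the rule by construction. The difference in peak number, -2694, ran from -7198 to 1811 without 1 sample, turning positive without PD replicate 1 (1080) or control replicate 2 (1811). That in covered length, -2.80 Mb, ran from -7.22 to 1.62 Mb, turning positive without control replicate 2 (1.62). The cause was not tested.

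Without 1 Pard3WT sample the difference in share was 28.6 to 45.2 points for gained and -59.5 to -43.1 points for lost regions. The share with the same pattern in Pard3WT was 30.3% of gained regions at a score of at least 100, and 46.7% of gained and 22.3% of lost regions with equal peak numbers, alternatives chosen after seeing the data. In both of these settings the gained and lost regions were called anew. Within 50 kb of a gene lay 89.9% of gained, 87.2% of lost and 91.5% of all regions. With a score of at least 100, Ank3 (1 more gained than lost) and Spry1 (-1) turned, and 21 others of 27 named genes had another balance. With equal peak numbers 22 of the 27 did and none turned, and no region at Afp, Cdh1 or Spry1 was gained. Replicate numbers do not pair the samples in the labels. With the replicate block, exact p was 0.5 for peak number (-2694), 1 for covered length (-2.80), 0.5 for both Pard3WT shares (36.9 and -51.3 points) and 0.25 for both E17.5 shares (-24.9 and 12.8 points), each the smallest it allows except for covered length. Searching motifs at region centres was not run, since only promoter sequences were used. Missing read depth limits each absent peak, which may lie just under the score of 50.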
